A study of Mus musculus with 2 samples.

Results

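The 10 genes described here build, load and regulate the major histocompatibility complex (MHC) class II molecules that carry peptides to CD4+ T cells. They were taken by symbol from the gene lists of both count tables, where all 10 were found among 27998 genes, and the rule that chose them used no measured value. H2-Aa, H2-Ab1 and H2-Eb1 encode chains of the surface molecules, Cd74 the invariant chain that guards the groove, Ciita the transactivator of the group, H2-DMa, H2-DMb1 and H2-DMb2 the peptide exchanger H2-M, and H2-Oa and H2-Ob its modulator H2-O. They were measured by single-cell RNA sequencing of dorsal skin that had closed over a round wound, in 2 libraries of 1 per group, each holding cells of several mice. Both groups were wild-type male C57BL/6J mice aged 6 to 8 weeks with a wound of 1.8 cm. The WT_LW wounds received PBS and the TLR9agonist_LW wounds received ODN2395, a CpG oligodeoxynucleotide agonist of Toll-like receptor 9, on days 0, 3 and 6, and the wound centre was collected 2 days after the scab had detached. The treatment is called spraying in the sample descriptions and dropwise addition or injection in the study's text, and a figure legend gives a control oligonucleotide where the descriptions give PBS. With 1 library per group no test between the groups was possible, and mice, preparation and treatment cannot be told apart.

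Class II molecules are made mainly by dendritic cells, macrophages, monocytes and B cells, and in skin by Langerhans cells of the epidermis. The invariant chain occupies the groove in the endoplasmic reticulum, cathepsins trim it in the endosome, and H2-M then exchanges its remnant for peptide while H2-O tempers that exchange. Ciita binds no DNA itself but joins the RFX, CREB and NF-Y factors that sit on the X and Y boxes of class II promoters, and it is induced by interferon gamma. The C57BL/6 strain makes no E alpha chain, so the E beta chain of H2-Eb1 has no regular partner there.

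The promoters are shown first because they carry the boxes that the transactivator works through and that tie the structural and accessory genes together. In the GRCm38 annotation 8 of the 10 genes lie on chromosome 17 between 34092340 and 34316674, a span of 224 kb, in the order H2-Oa, H2-DMa, H2-DMb2, H2-DMb1, H2-Ob, H2-Ab1, H2-Aa and H2-Eb1. Ciita lies on chromosome 16 from 10480059 to 10528418. RefSeq promoters of build GRCm38.p6, each running from 250 bases before to 50 bases after a gene start, were matched for 7 of the 10 genes, and H2-Ab1, Cd74 and Ciita were not among them. Windows of 80 bases follow, 5′ to 3′ on the strand of each gene, with the Y motif GATTGG and the X motif, AAC and after any 2 bases ATGATGC, in capitals. The windows are chr17:34287853-34287932 (minus strand) for H2-Aa and, on the plus strand, chr17:34305747-34305826 for H2-Eb1, chr17:34238787-34238866 for H2-Ob, chr17:34153069-34153148 for H2-DMb1, chr17:34145098-34145177 for H2-DMb2 and chr17:34092275-34092354 for H2-Oa.
H2-Aa: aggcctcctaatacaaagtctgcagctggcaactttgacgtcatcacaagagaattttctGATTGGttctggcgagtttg
H2-Eb1: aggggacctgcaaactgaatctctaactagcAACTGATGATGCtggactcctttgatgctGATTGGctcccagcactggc
H2-Ob: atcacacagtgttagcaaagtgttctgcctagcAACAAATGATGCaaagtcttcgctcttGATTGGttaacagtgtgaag
H2-DMb1: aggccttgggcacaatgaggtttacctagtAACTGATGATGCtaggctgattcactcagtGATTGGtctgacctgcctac
H2-DMb2: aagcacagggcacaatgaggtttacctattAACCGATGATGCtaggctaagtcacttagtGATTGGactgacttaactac
H2-Oa: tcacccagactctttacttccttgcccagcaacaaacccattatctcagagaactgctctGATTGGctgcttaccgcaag
Counted from the RefSeq gene start, the Y motif starts 49 bases before it in H2-Aa, 60 in H2-Eb1 and 58 in H2-Ob. It starts 62 bases before it in H2-DMb1, 91 in H2-DMb2 and 44 in H2-Oa. RefSeq starts can differ from those of the annotation given above, in which H2-DMb2 begins at 34143307, before its window. The X motif stands before the Y motif in H2-Eb1, H2-Ob, H2-DMb1 and H2-DMb2, with 17, 15, 18 and 18 bases between. H2-DMa, whose promoter is not printed, has the Y motif and not the X motif. Searched on both strands, GATTGG occurred in 5292 of 32851 promoters (16.1%) and the X motif in 13 (0.0396%). Both in this order, 10 to 40 bases apart and without overlap, occurred in 4 promoters (0.0122%), which were those of the 4 genes named. The X letters were written after these sequences had been read, so the last counts describe them and test nothing. The H2-DMb1 and H2-DMb2 windows, from neighbouring near-identical genes, were equal at 67 of 80 bases (83.8%). Reads that fit both genes may have been split or dropped in counting, so the values of each are uncertain.

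The deposited tables held 12800 barcodes with 99374045 unique molecular identifiers (UMIs) in WT_LW and 13751 with 132339022 in TLR9agonist_LW, and the libraries shared 47 barcodes. After a filter and the removal of 1048 and 1395 predicted doublets, marker genes other than class II genes gated 8630 and 10240 cells into 13 types. Macrophages and dendritic cells numbered 1968 and 1445, with a median of 9163 and 8421 UMIs, and were divided by markers into 7 subsets. The subsets are Langerhans-like, Cd209a dendritic, type 1 dendritic-like, migratory dendritic-like and monocyte-like cells, and C1q and Mmp12 macrophages, and each detected at least 6 of its listed markers in over 25% of its cells. Levels are UMIs per 1000000 UMIs (CPM) of a cell type in a library. Brackets give 95% intervals, exact Poisson for levels, exact conditional for ratios and Clopper-Pearson for shares, all of which cover counting error only. A log2 ratio is TLR9agonist_LW over WT_LW. The summed H2-Aa, H2-Ab1, H2-Eb1 and Cd74 level is called the core level. UMIs of 3′ libraries are not scaled by length, so different genes are not ranked by level.

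Macrophages and dendritic cells held nearly all class II transcripts of the wound. They carried 95.6% of the core UMIs of gated cells in WT_LW (95.5 to 95.6) and 93.8% in TLR9agonist_LW (93.7 to 93.9), while they made up 22.8% and 14.1% of the cells and 26.0% and 13.1% of all UMIs. Over all gated cells the core level was 10052 CPM, against 4442 CPM with the agonist. That total holds both the share of macrophages and dendritic cells and the level within them, and the share of all UMIs differed more than the level. Within macrophages and dendritic cells the core level was 36921 CPM (36835 to 37007) in WT_LW and 31721 CPM (31625 to 31818) in TLR9agonist_LW. The rarer presenting cells were too few to compare. B cells numbered 5 and 2, with a core level of 7005 and 29881 CPM, and plasmacytoid dendritic cells 9 and 5, with 8044 and 24317 CPM. The 29 neutrophils of WT_LW averaged 14197 CPM, but the median over these cells was 1791 CPM and the highest cell had 58246 CPM, so a few cells carried the mean.

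**Figure D1:**
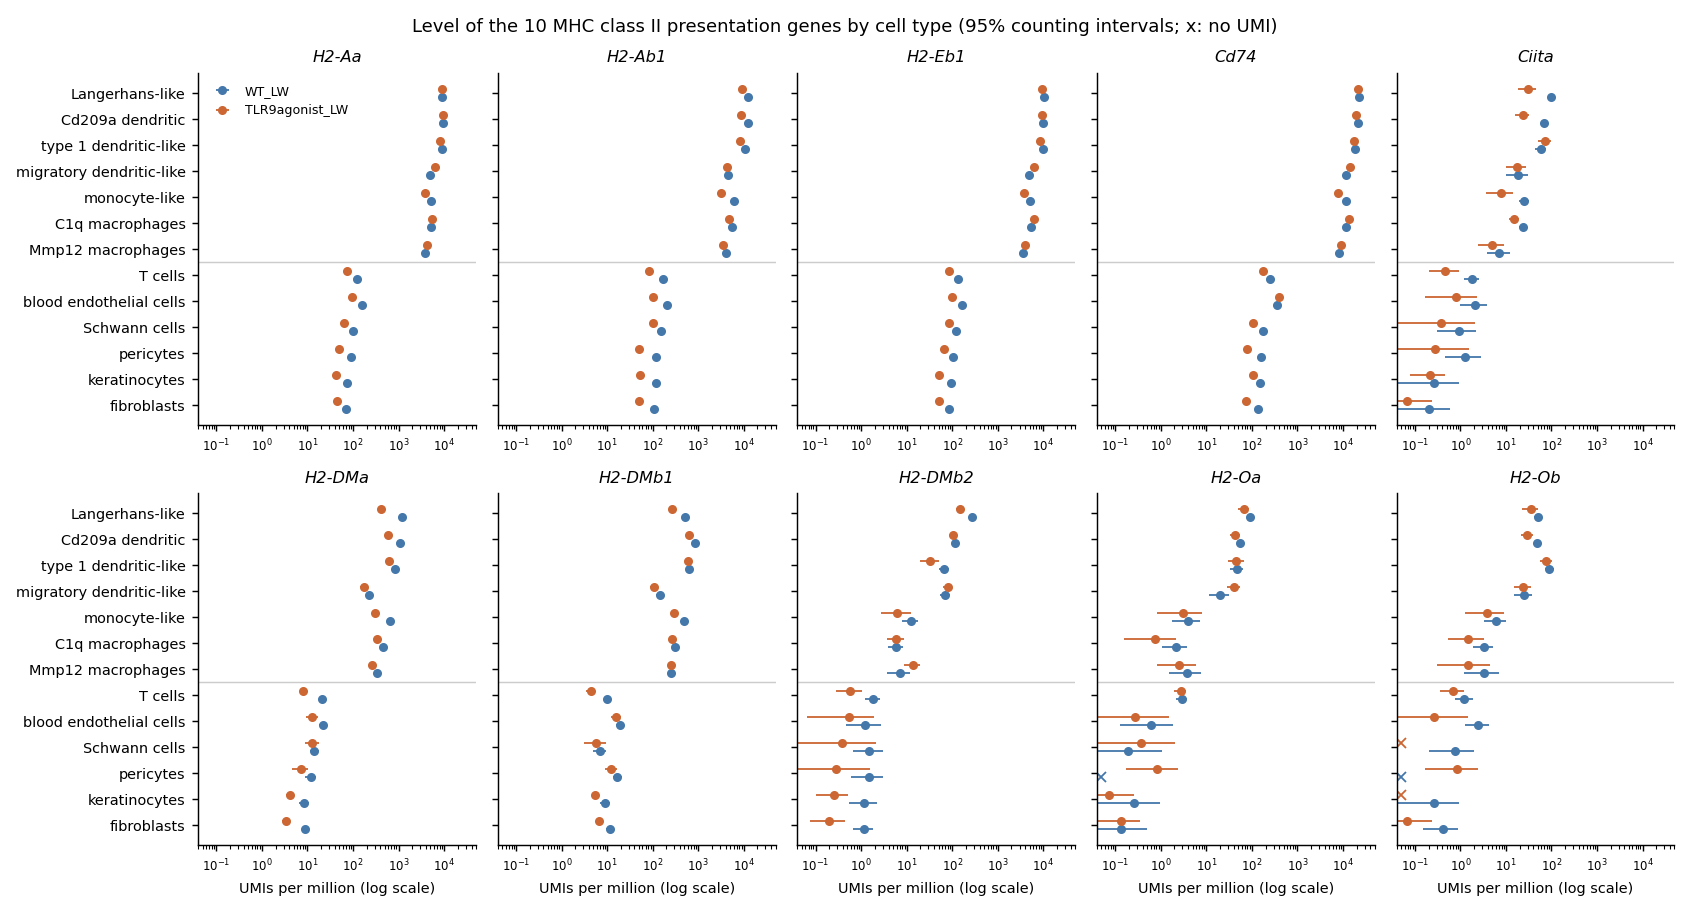
Level of each of the 10 genes in 7 subsets of macrophages and dendritic cells (above the grey line) and in T cells and 5 non-immune types (below it), in CPM on a log axis, with WT_LW in blue and TLR9agonist_LW in orange. Bars are 95% Poisson counting intervals and a cross marks no UMI. H2-Aa, H2-Ab1, H2-Eb1 and Cd74 are high in all 7 subsets, whereas H2-DMb2, H2-Oa and H2-Ob are at 13.4 CPM or less in C1q and Mmp12 macrophages.

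In macrophages and dendritic cells as a whole, Ciita and H2-DMa stood further below their WT_LW level in TLR9agonist_LW than the chains did. The core level had a log2 ratio of -0.22 (-0.22 to -0.21), but the median of the 11228 genes with at least 50 UMIs had -0.26, and relative to that median gene the core stood 0.04 higher. All 10 genes were lower in TLR9agonist_LW, a direction that 73.8% of those 11228 genes shared, and 7 of the 10 were lower than the median gene, H2-Aa, H2-Eb1 and Cd74 being higher than it. The median of the 10 was -0.59. Ciita alone was at least 2-fold lower, against 4.28% of all genes, and none of the 10 was at least 2-fold higher, against 3.37%.

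The chains of the surface molecules did not move together. H2-Aa, the A alpha chain, went from 6773 CPM (6737 to 6810) in WT_LW to 6172 CPM (6130 to 6215), a log2 ratio of -0.13 (-0.15 to -0.12), and 0.13 relative to the median gene. H2-Eb1 went from 6944 to 6330 CPM and Cd74, the invariant chain, from 15156 to 13837 CPM, each with the same ratio of -0.13 and 0.13 relative to the median gene. With the subset mix of the 2 libraries held equal the ratios of these 3 genes were -0.024, -0.024 and -0.025, and that of H2-Ab1 was -0.44. H2-Ab1, the A beta chain that pairs with H2-Aa, went from 8048 to 5382 CPM, with a ratio of -0.58 (-0.59 to -0.57), and stayed lower than the median gene by -0.32. The beta chain was thus the lower partner in TLR9agonist_LW, while 3 of the 4 core genes kept nearly the same ratio as each other.

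Ciita, the transactivator, had 786 UMIs in WT_LW and 242 in TLR9agonist_LW, or 41.1 CPM (38.3 to 44.0) and 18.6 CPM (16.3 to 21.0). Its log2 ratio was -1.15 (-1.36 to -0.94), and -0.89 relative to the median gene, which is under 2-fold. In cells thinned to 1500 UMIs it was detected in 5.70% (4.69 to 6.85) and 3.18% (2.31 to 4.26) of cells, and the ratio of the thinned counts was -0.80. With the subset mix held equal it was -0.95, so the gene was past 2-fold neither thinned, nor with equal mix, nor relative to the median gene, and with equal weight per cell it was -1.16.

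The peptide exchanger H2-M was lower in each of its parts. H2-DMa, its alpha chain, stood at 702 CPM (690 to 714) in WT_LW and 366 CPM (356 to 377) in TLR9agonist_LW, a ratio of -0.94. H2-DMb1, a beta chain, went from 490 to 325 CPM (-0.59) and H2-DMb2 from 63.7 to 36.5 CPM (-0.80). The modulator chains went from 25.1 to 17.6 CPM for H2-Oa (-0.51) and from 22.6 to 13.8 CPM for H2-Ob (-0.71). All of these 5 genes were also lower relative to the median gene, H2-DMa by -0.68 and H2-Oa, the least, by -0.25. With the subset mix held equal the ratios were -0.79 for H2-DMa, -0.44 for H2-DMb1, -0.43 for H2-DMb2, -0.15 for H2-Oa and -0.42 for H2-Ob. Those of the beta chain genes H2-DMb1, H2-DMb2 and H2-Ob were close to that of H2-Ab1, but H2-Eb1, also a beta chain gene, had -0.024.

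**Figure D2:**
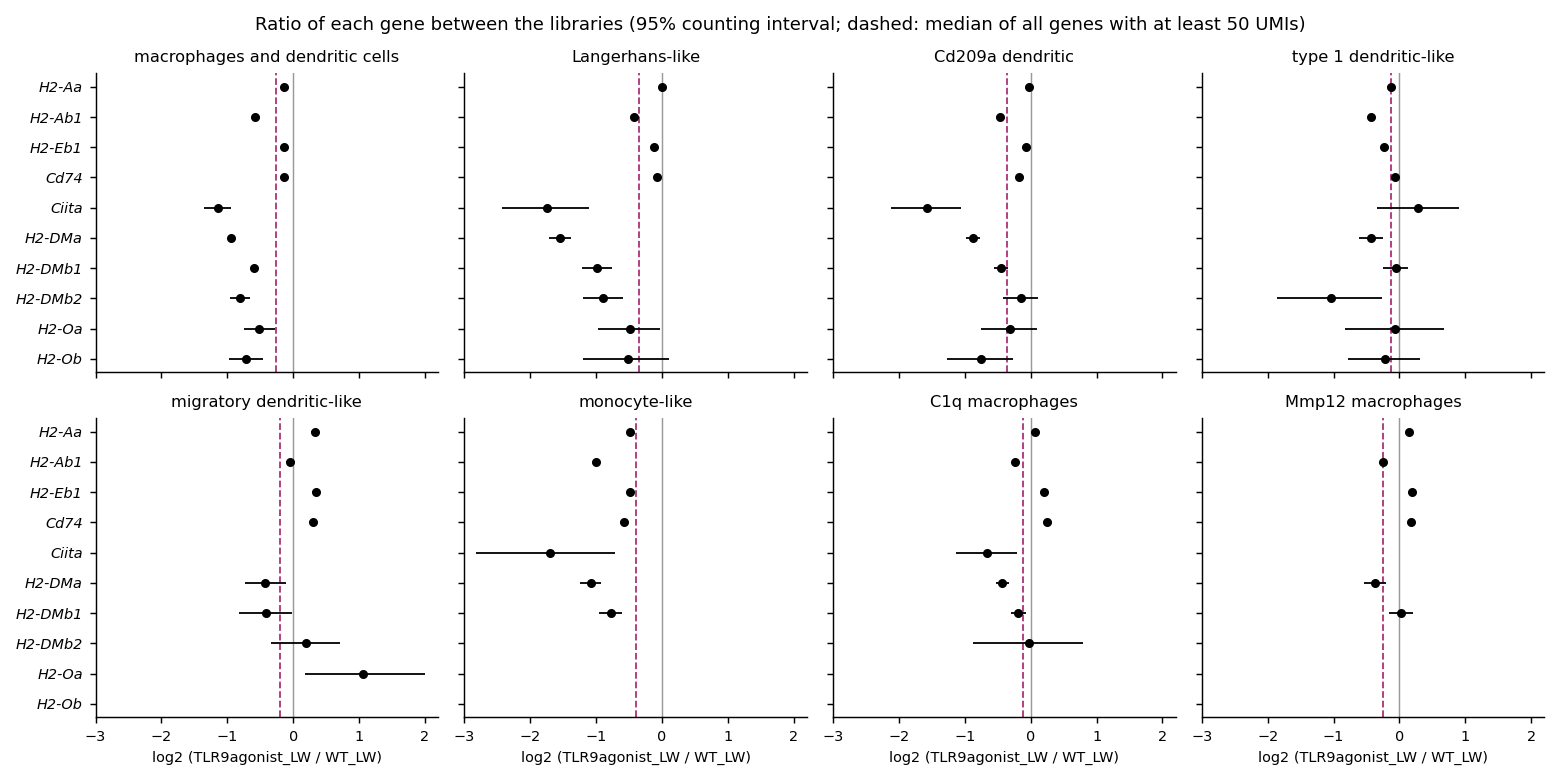
Log2 ratio of each gene between the libraries, TLR9agonist_LW over WT_LW, in all macrophages and dendritic cells and in the 7 subsets, for genes with at least 50 UMIs over both libraries. Bars are 95% counting intervals, the grey line is no difference and the dashed line is the median of all genes with at least 50 UMIs. H2-DMa lies left of both lines in all 7 subsets, whereas H2-Aa, H2-Eb1 and Cd74 lie right of the dashed line in 5, 5 and 6 of them.

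The subsets differed more in class II level than the libraries did. In WT_LW the core level was highest in Langerhans-like cells (54419 CPM, 146 cells), which are the resident presenting cells of the epidermis, and close behind in Cd209a dendritic cells (53366 CPM, 306 cells). Type 1 dendritic-like cells, the lineage known for cross-presentation, had 47850 CPM (61 cells). Monocyte-like cells (28482 CPM, 278 cells), C1q macrophages (27617 CPM, 609 cells) and migratory dendritic-like cells (25859 CPM, 81 cells) followed, and Mmp12 macrophages were lowest (19492 CPM, 139 cells). The highest was 2.79 times the lowest (2.76 to 2.83). With cell types from clusters Cd209a dendritic cells came before Langerhans-like cells, and with a stricter gate migratory dendritic-like cells came before C1q macrophages and monocyte-like cells.

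In TLR9agonist_LW the first 3 kept their order, with 49240 CPM in 59 Langerhans-like cells, 46899 CPM in 131 Cd209a dendritic cells and 41902 CPM in 43 type 1 dendritic-like cells. Below them the order differed. Migratory dendritic-like cells came next (30975 CPM, 80 cells), then C1q macrophages (30040 CPM, 594 cells) and Mmp12 macrophages (20779 CPM, 147 cells), and monocyte-like cells were last (18491 CPM, 163 cells). With a stricter gate Mmp12 macrophages were last instead, and with clusters C1q macrophages came before migratory dendritic-like cells. The counting intervals of no 2 neighbours overlapped in either library, but with 1 library each the spread between animals is unknown, and the order of the lower 4 was not the same in both. The remaining 348 and 228 cells that no subset took had 39881 and 33901 CPM.

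Core class II was lower in TLR9agonist_LW in 4 subsets and higher in 3, and relative to the median gene of each subset lower in 2 and higher in 5. The log2 ratios were -0.62 (-0.64 to -0.60) in monocyte-like cells, -0.19 (-0.21 to -0.17) in type 1 dendritic-like cells, -0.19 (-0.20 to -0.17) in Cd209a dendritic cells and -0.14 (-0.16 to -0.13) in Langerhans-like cells. They were 0.26 (0.23 to 0.29) in migratory dendritic-like cells, 0.12 (0.11 to 0.13) in C1q macrophages and 0.09 (0.07 to 0.11) in Mmp12 macrophages. Relative to the median gene of each subset the core was lower in monocyte-like (-0.23) and type 1 dendritic-like cells (-0.07) only, and Cd209a dendritic (0.17) and Langerhans-like cells (0.21) turned to higher. The leading sub-cluster of a subset differed between the 2 libraries for C1q macrophages (sub-clusters 6 and 4), Mmp12 macrophages (8 and 1), monocyte-like cells (2 and 1) and Cd209a dendritic cells (3 and 10), whereas for Langerhans-like, migratory and type 1 dendritic-like cells it was the same. Both libraries were clustered together without correction for library, so a different sub-cluster cannot tell cell state from library. The part of either in the ratios was not tested.

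Monocyte-like cells had the lowest core ratio of the 7 subsets, also relative to the median gene (-0.23), although migratory dendritic-like cells (0.47) and Mmp12 macrophages (0.34) lay further from their median gene on the other side. All 7 genes with at least 50 UMIs were lower in TLR9agonist_LW, also relative to the median gene, where 76% of all genes were lower, and their median was -0.78 against -0.40 for the median gene. Ciita, H2-DMa and H2-Ab1 were at least 2-fold lower, 3 of 7 beside 13.3% of all genes, and none was 2-fold higher, beside 2.74%. H2-Ab1 went from 6236 to 3114 CPM and H2-Aa from 5229 to 3752 CPM. The monocyte-like cells of the 2 libraries lay in different sub-clusters. In WT_LW 38.5% of those clustered were in sub-cluster 2, named monocytes by its markers. In TLR9agonist_LW 78.4% were in sub-cluster 1, named Mmp12 macrophages, which also held 54.1% of the Mmp12 macrophages of that library. These names are loose. Of the cells of sub-cluster 2, 30.4% were gated as monocyte-like, and of those of sub-cluster 1, 19.4% as Mmp12 macrophages. The ratios of this subset therefore compare cells that cluster apart, whether by state or by library, and the part of either was not tested.

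Langerhans-like and Cd209a dendritic cells had nearly equal H2-Aa in both libraries and less Ciita and H2-DMa in TLR9agonist_LW. In Langerhans-like cells all 10 genes were lower (68.6% of all genes), 7 of them also relative to the median gene, yet H2-Aa had 9103 and 9097 CPM, while Ciita went from 99.5 (85.7 to 115) to 29.8 CPM (18.9 to 44.7) and H2-DMa from 1209 to 414 CPM. These were the 2 of 10 genes at least 2-fold lower, beside 21.2% of all genes (5.94% were 2-fold higher, none of the 10 among them), and the median of the 10 was -0.50 against -0.35. In Cd209a dendritic cells all 10 were again lower (74.9% of all genes), with a median of -0.38 against -0.36, and 5 of the 10 were lower than the median gene. H2-Aa had 9675 and 9548 CPM there and Ciita, the 1 gene at least 2-fold lower (13% of all genes, with 3.14% 2-fold higher), went from 69.2 to 23.3 CPM.

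In type 1 dendritic-like cells 9 of 10 genes were lower (60.4% of all genes), 6 of the 10 relative to the median gene, with a median of -0.18 against -0.12. Ciita was the exception, with 58.1 CPM (43.4 to 76.2) against 70.6 CPM (50.7 to 95.8), and a ratio of 0.28 whose interval, -0.35 to 0.90, spans no difference. H2-DMb2 was at least 2-fold lower, from 67.1 to 32.7 CPM, 1 gene of 10 beside 5.46% of all genes, and none was 2-fold higher, beside 2.25%.

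The other 3 subsets ran higher or level. In migratory dendritic-like cells, which carry antigen towards lymph nodes, 5 of 8 genes were higher and 3 lower (66.7% of all genes were lower), or 6 and 2 relative to the median gene, with a median of 0.24 against -0.20. H2-Oa was at least 2-fold higher there (19.6 and 40.9 CPM), 1 gene of 8 beside 2.9% of all genes (6.92% were 2-fold lower, none of the 8 among them), on only 16 and 38 UMIs. In C1q macrophages 5 of 8 genes were lower (60.8% of all genes), 4 relative to the median gene, with a median of -0.11 beside -0.11. In Mmp12 macrophages 2 of 6 were lower (70.1% of all genes), H2-Ab1 and H2-DMa, and 1 relative to the median gene, with a median of 0.08 against -0.25. No gene of the 10 was 2-fold lower or higher in C1q macrophages (3.27% and 3.41% of all genes) or Mmp12 macrophages (6.93% and 3.51%).

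Taken gene by gene over the 7 subsets, H2-DMa was the steadiest in direction, though not in size, a choice made after the values were seen. It was lower in TLR9agonist_LW in 7 of 7 subsets, with ratios from -1.54 in Langerhans-like to -0.37 in Mmp12 macrophages, and lower than the median gene in 7 of 7. In single subsets 60.4% to 76% of all genes were lower, and the share lower in all 7 was not counted. H2-Ab1 was also lower in 7 of 7, from -1.002 to -0.04, but lower than the median gene in 5. Ciita was lower in 4 of the 5 subsets with enough UMIs, also relative to the median gene. H2-Aa, H2-Eb1 and Cd74 were each lower in 4 of 7, and in 2, 2 and 1 of 7 relative to the median gene.

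The accessory genes were not spread like the chains. H2-DMb2, H2-Oa and H2-Ob were nearly limited to dendritic subsets. In Langerhans-like cells H2-DMb2 had 272 CPM, against 146 CPM with the agonist, and in Cd209a dendritic cells 117 and 105 CPM, but 5.82 and 5.70 CPM in C1q macrophages. H2-Oa, the H2-O alpha chain, was at 92.5 and 66.0 CPM in Langerhans-like cells and at 2.14 and 0.743 CPM, from 11 and 3 UMIs, in C1q macrophages. H2-Ob, its beta chain, was highest in type 1 dendritic-like cells in both libraries (90.5 and 77.5 CPM) and at 3.30 and 1.49 CPM in C1q macrophages. H2-DMa and H2-DMb1 by contrast reached 453 and 304 CPM in C1q macrophages of WT_LW and 336 and 267 CPM in those of TLR9agonist_LW. Migratory dendritic-like cells had the lowest H2-DMa level of all subsets, 229 and 171 CPM, although H2-Oa and H2-DMb2 were detected there at 19.6 to 79.6 CPM.

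Ciita was highest in Langerhans-like, Cd209a and type 1 dendritic-like cells in both libraries, while migratory dendritic-like cells lay under monocyte-like cells and C1q macrophages in WT_LW and above them in TLR9agonist_LW. Beside the values above it had 25.2 and 7.77 CPM in monocyte-like cells, 23.9 and 15.1 CPM in C1q macrophages and, from 15 and 16 UMIs, 18.4 and 17.2 CPM in migratory dendritic-like cells. In Mmp12 macrophages it had 13 and 10 UMIs in all. At 1500 UMIs per cell it was detected in 12.6% (7.63 to 19.2) and 8.47% (2.81 to 18.7) of Langerhans-like cells, intervals that overlap, in 10.2% (7.01 to 14.1) and 2.31% (0.478 to 6.60) of Cd209a dendritic cells, and in 5.07% (2.80 to 8.36) and 0.621% (0.0157 to 3.41) of monocyte-like cells. In type 1 dendritic-like cells the shares were 6.56% and 18.6%, from 4 and 8 cells. Of T cells, 0.222% (0.0892 to 0.456) and 0.0294% (0.000745 to 0.164) had a Ciita UMI at that depth.

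**Figure D3:**
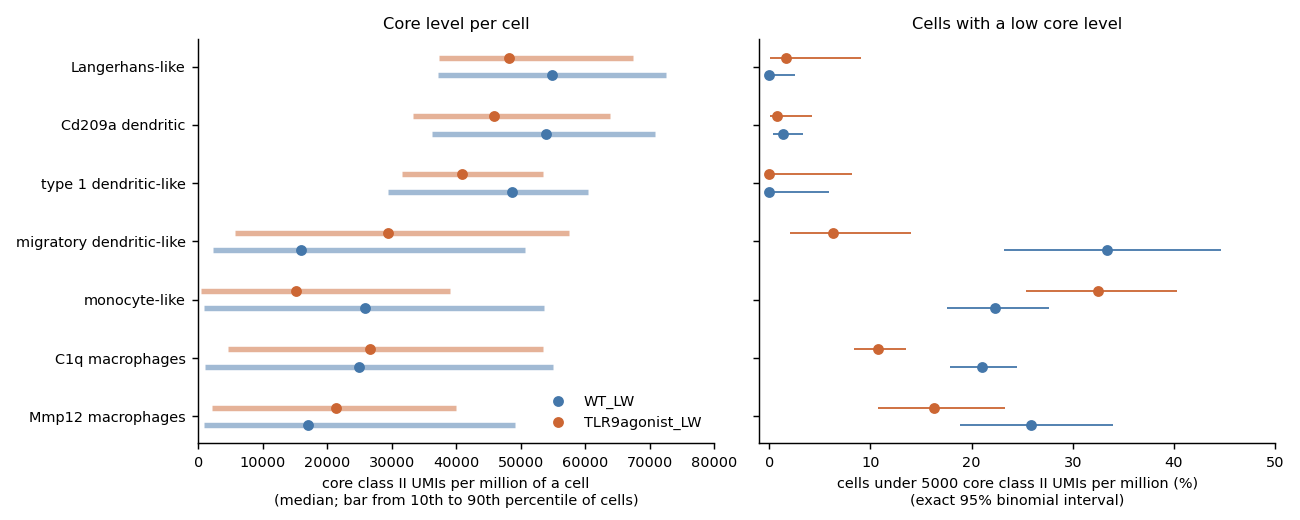
Left, core class II level per cell (H2-Aa, H2-Ab1, H2-Eb1 and Cd74, CPM of a cell) in the 7 subsets, with the median as a point and a bar from the 10th to the 90th percentile of cells. Right, share of cells under 5000 CPM with exact 95% binomial intervals. Langerhans-like, Cd209a and type 1 dendritic-like cells are almost all above the line, while the share of low cells is 33.3% in WT_LW and 6.25% in TLR9agonist_LW for migratory dendritic-like cells.

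Within subsets the level per cell was either narrow or broad. In Langerhans-like cells of WT_LW the 10th percentile, median and 90th percentile of the core level were 37156, 54850 and 72489 CPM, and in TLR9agonist_LW 37410, 48220 and 67352 CPM. Cells under 5000 CPM, a line set after the values were seen, were 0 of 146 and 1 of 59 there, and 0 of 61 and 0 of 43 in type 1 dendritic-like cells. Cd209a dendritic cells had 4 of 306 and 1 of 131. In the remaining 4 subsets more of the cells were low. Such low cells were 21.0% (17.8 to 24.5) of C1q macrophages in WT_LW and 10.8% (8.40 to 13.6) in TLR9agonist_LW, 25.9% and 16.3% of Mmp12 macrophages, and 33.3% (23.2 to 44.7) and 6.25% (2.060 to 13.99) of migratory dendritic-like cells. The share was higher in TLR9agonist_LW for monocyte-like cells, 22.3% (17.5 to 27.7) and 32.5% (25.4 to 40.3). Cells within 20% of the line were 2.74% and 3.25% of all macrophages and dendritic cells, and 7.41% and 6.25% of migratory dendritic-like cells, where 5 of 80 cells were low in TLR9agonist_LW. At 1500 UMIs per cell the shares were alike, 21.4% and 8.88% for C1q macrophages and 29.1% and 8.75% for migratory dendritic-like cells.

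Leaving the low cells aside, the median core level of C1q macrophages was 34167 CPM, against 29543 CPM with the agonist, and that of migratory dendritic-like cells 33787 and 32455 CPM. In these subsets the mean over all cells was higher in TLR9agonist_LW and the median of the cells above the line was lower. In monocyte-like cells that median was 34401 and 24309 CPM, so both measures were lower.

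The balance between partner genes was compared within each library, where the total of a cell type drops out. H2-Ab1 per H2-Aa UMI was 1.19 (1.179 to 1.197) in macrophages and dendritic cells of WT_LW and 0.872 (0.863 to 0.881) in those of TLR9agonist_LW. It was lower in TLR9agonist_LW in 14 of the 16 cell types and subsets with at least 50 UMIs of both genes in each library, Schwann cells and mast cells being the exceptions. These 16 include subsets nested in the class and cell types at background level, and they share the same 2 libraries. In Langerhans-like cells the ratio was 1.37 and 1.02, in monocyte-like cells 1.19 and 0.830, in C1q macrophages 1.06 and 0.856, and in migratory dendritic-like cells, the lowest of the 7 in both libraries, 0.911 and 0.707. T cells, which do not make class II in the mouse, had 1.40 and 1.08. H2-Eb1 per H2-Aa (1.03 and 1.03) and Cd74 per H2-Aa (2.24 and 2.24) were alike in the macrophages and dendritic cells of both libraries. H2-DMa per H2-DMb1 went from 1.43 (1.39 to 1.47) to 1.13 (1.08 to 1.17) and was lower in TLR9agonist_LW in 10 of 10, by the least in migratory dendritic-like cells (1.61 and 1.61) and from 2.34 to 1.58 in Langerhans-like cells.

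**Figure D4:**
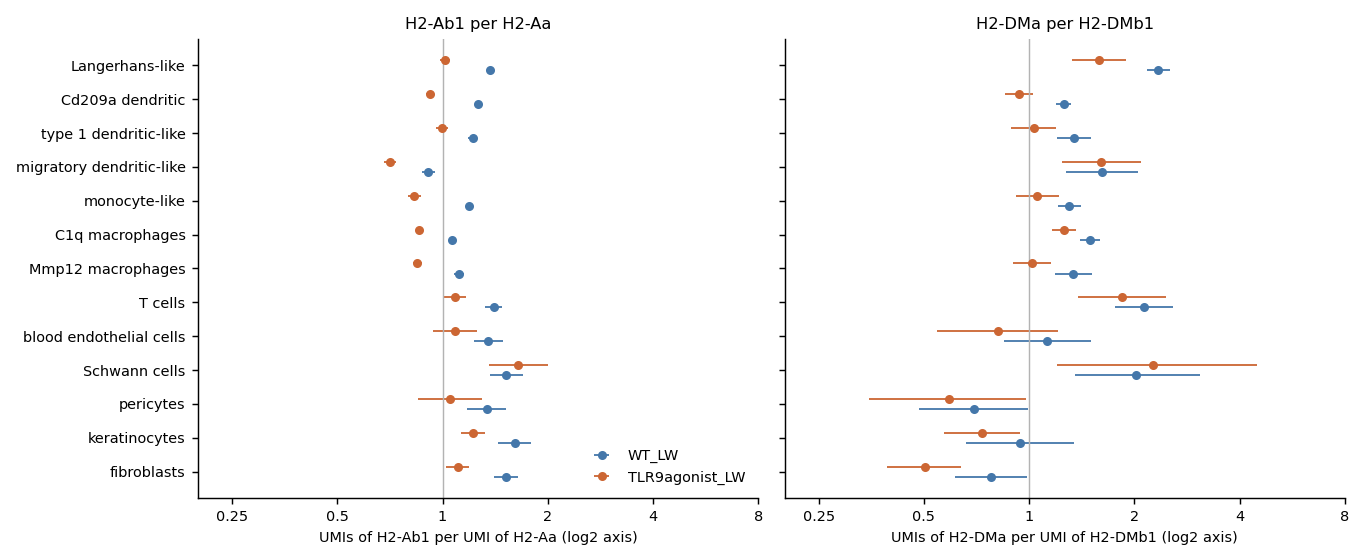
UMIs of H2-Ab1 per UMI of H2-Aa (left) and of H2-DMa per UMI of H2-DMb1 (right) on log2 axes, in the 7 subsets, T cells and 5 non-immune types, with 95% exact conditional intervals. The TLR9agonist_LW point lies left of the WT_LW point for H2-Ab1 per H2-Aa in every type drawn but Schwann cells.

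In non-immune cells the core level was low, and in most types no higher than in T cells. All 6 types together had 513 CPM (506 to 520) in 3203 cells of WT_LW and 268 CPM (264 to 272) in 4814 cells of TLR9agonist_LW, which is 1.39% and 0.845% of the level in macrophages and dendritic cells. T cells of the same libraries had 681 and 415 CPM. Fibroblasts had 400 and 222 CPM, keratinocytes 437 and 255 CPM, pericytes 476 and 244 CPM and Schwann cells 553 and 361 CPM, each under the T cell level of its library. These levels do not exceed that of a type that lacks class II, and they are read neither as expression nor as its absence. With the T cell level subtracted the non-immune share was below 0. Core UMIs per cell in WT_LW and TLR9agonist_LW, however, were 3.44 and 2.10 in T cells and 7.24 and 5.08 in keratinocytes. They were 7.14 and 2.98 in fibroblasts, 3.72 and 2.03 in pericytes and 4.31 and 2.45 in Schwann cells. Because depth differs between the types, the comparison with T cells cannot decide whether they express class II. The part of free RNA was not tested, and keratinocytes of TLR9agonist_LW had 2.95 core UMIs (2.82 to 3.09) per UMI of the myeloid reference genes defined next, above the 2.49 of macrophages and dendritic cells.

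Detection at 1500 UMIs per cell also placed T cells highest of these types. Cd74 was detected in 32.5% and 21.5% of T cells, 26.3% and 13.8% of keratinocytes, 19.2% and 12.4% of fibroblasts and 25.7% and 12.9% of pericytes, at median depths of 4253 and 4573 UMIs in T cells and 17318 and 12812 UMIs in fibroblasts before thinning. Unthinned, Cd74 was found in 68.6% and 71.9% of blood endothelial cells and in 98.2% and 98.3% of macrophages and dendritic cells. Core UMIs per UMI of 6 myeloid reference genes (Lyz2, C1qa, C1qb, C1qc, Tyrobp and Fcer1g) were 2.44 and 2.49 in macrophages and dendritic cells, and 1.71 to 2.95 in T cells, keratinocytes, fibroblasts, pericytes and Schwann cells. The reference genes themselves had a log2 ratio of -0.98 in non-immune cells, beside -0.94 for the core genes.

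Taken over all their cells, blood endothelial cells stood apart. Their core level was 877 CPM (851 to 904) in 609 cells of WT_LW and 687 CPM (661 to 714) in 367 cells of TLR9agonist_LW, above the T cell level in both, and their core per reference UMI was 3.61 (3.38 to 3.85) and 5.28 (4.79 to 5.83), above that of macrophages and dendritic cells. With cell types taken from clusters it was 3.36 and 3.88. Cd74 accounted for most of it in TLR9agonist_LW. Cd74 UMIs per UMI of the 3 chains were 0.679 (0.638 to 0.722) in WT_LW and 1.31 (1.21 to 1.42) in TLR9agonist_LW, beside 0.696 and 0.774 in macrophages and dendritic cells and 0.430 to 0.725 in T cells and the other 4 main non-immune types of either library. The Cd74 level was 355 CPM in WT_LW and 390 CPM in TLR9agonist_LW, whereas H2-Aa was at 154 and 96.2 CPM and H2-Ab1 at 208 and 104 CPM. At 1500 UMIs per cell Cd74 was detected in 31.7% (28.0 to 35.7) and 31.4% (26.7 to 36.5) of these cells, against 32.5% (30.9 to 34.2) and 21.5% (20.1 to 22.9) of T cells, so the share was above that of T cells in TLR9agonist_LW only.

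The endothelial Cd74 UMIs sat in few cells, as they did in some other types. The top 10% of cells by Cd74 held 62.7% and 59.6% of them, beside 60.9% in mast cells of WT_LW and 56.1% in keratinocytes and 46.3% in T cells of TLR9agonist_LW. In 28 cells of WT_LW and 34 of TLR9agonist_LW with at least 10 Cd74 UMIs, H2-Aa stood at 676 and 245 CPM, against 102 and 74.5 CPM in the other endothelial cells. The core level of those others was 558 and 412 CPM, beside 656 and 386 CPM in T cells under 10 Cd74 UMIs. Their core per reference UMI was 2.26 and 3.21, beside 2.44 and 2.49 in macrophages and dendritic cells. Without the chosen cells neither measure was thus raised in WT_LW, while both stayed above in TLR9agonist_LW. The reference genes stood at 209 (168 to 256) and 142 CPM (111 to 180) in the cells so chosen and at 247 (232 to 262) and 128 CPM (116 to 141) in the others. These cells had a median of 14298.5 and 11383.5 UMIs, against 6140 and 8354 in the others, so the choice by Cd74 UMIs also takes deeper cells. They held 1 and 2 Ciita UMIs in all, and 1 cell of WT_LW held 242 Cd74 UMIs. Dendritic cell markers stood at 45.8 CPM in the chosen cells of WT_LW, against 4.55 CPM in the others. In TLR9agonist_LW they stood at 0 against 2.74 CPM. The part of dendritic cell RNA in these endothelial cells was not tested. A similar group of 49 keratinocytes of TLR9agonist_LW had 146 CPM of H2-Aa against 38.0 CPM in the others, with reference genes at 104 and 85.4 CPM. In the 21 keratinocytes of WT_LW chosen likewise the reference genes stood higher than in the others, at 374 against 180 CPM, and so they did in 15 T cells of WT_LW, at 595 against 393 CPM, with H2-Aa at 658 against 118 CPM.

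Lymphatic endothelial cells cannot be read. Their core level was 5632 CPM in 28 cells of WT_LW and 878 CPM in 3 cells of TLR9agonist_LW, but the doublet removal had taken 52.5% and 94.8% of them, and with those cells kept the level was 1930 CPM in 59 cells and 715 CPM in 58 cells. Lyz2, a myeloid marker, stood at 808 CPM in the 28 cells.

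**Figure D5:**
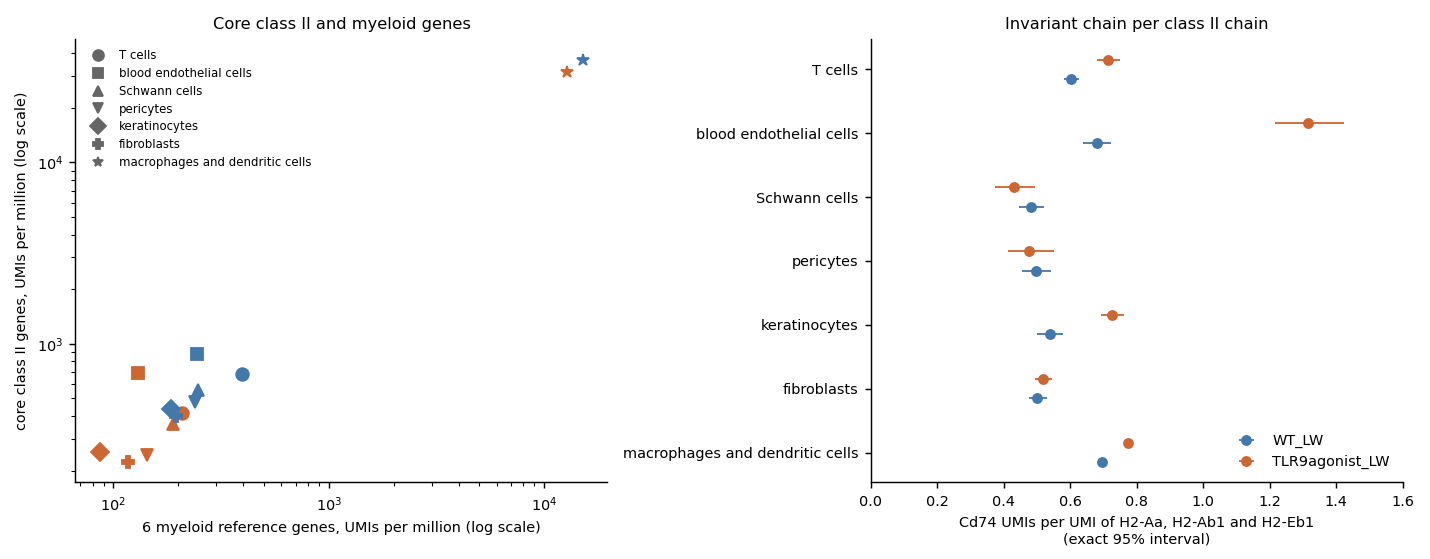
Left, core class II level against the summed level of 6 myeloid reference genes in T cells, 5 non-immune types and macrophages and dendritic cells, in CPM on log axes (WT_LW blue, TLR9agonist_LW orange). Right, Cd74 UMIs per UMI of H2-Aa, H2-Ab1 and H2-Eb1 with 95% exact conditional intervals. Blood endothelial cells of TLR9agonist_LW are at 1.31 on the right, and every other point is between 0.430 and 0.774.

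Other genes of the pathway were read in macrophages and dendritic cells by lists, beside the median gene of -0.26 and the 73.8% of genes lower in TLR9agonist_LW. Of 9 genes of peptide making and class II turnover 7 were lower, none by 2-fold, with a median of -0.32, and of those Ctsb and March8 were higher than the median gene. Ctss, the protease that trims the invariant chain in presenting cells, went from 2339 to 1574 CPM, and Ifi30, a lysosomal thiol reductase, from 1078 to 730 CPM. March1, a ubiquitin ligase that removes class II from the surface, went from 43.7 to 31.0 CPM, and Cd83, which opposes it, from 563 to 452 CPM. Ctsl was higher, from 318 to 614 CPM, and in Mmp12 macrophages from 920 to 2670 CPM, but it was lower in C1q macrophages, from 521 to 385 CPM.

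The promoter factors differed little. Of 7 RFX, NF-Y and CREB genes 6 were lower, Rfxap and Nfyb by less than the median gene, with a median of -0.26, and none was 2-fold lower or higher. Rfxap was at 28.0 and 26.8 CPM and Creb1 at 51.5 and 42.2 CPM. Rfx5, the 1 gene that was higher, had a log2 ratio of 0.28 (-0.22 to 0.76) on 80 and 66 UMIs, above the median gene. All 7 lay nearer to the median gene than Ciita, which stood at -0.89 relative to it.

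Class I and costimulation served as comparison. All 9 class I genes were lower, with a median of -0.33 and none by 2-fold, although H2-K1, H2-D1, B2m and Psmb9 were higher than the median gene. Among them were B2m, the light chain, from 2747 to 2312 CPM and Nlrc5, the class I counterpart of Ciita, from 20.9 to 14.9 CPM. Of 6 costimulatory genes 4 were higher and 2 lower. Cd86 went from 212 to 260 CPM and, in Langerhans-like cells, from 347 to 568 CPM, and Cd40 went from 47.4 to 35.7 CPM. Cd70 was the 1 gene of the list past 2-fold, at 1.202 and 4.217 CPM on 23 and 55 UMIs, and is named after its values were seen.

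Genes of the interferon gamma input lay on both sides of the median gene, with Jak1 (157 and 126 CPM) and Ifng lower than it. Relative to it the receptor genes Ifngr1 (177 and 152 CPM) and Ifngr2 (120 and 111 CPM) stood higher, as did the transcription factor gene Irf1 (88.47 and 90.02 CPM). Il10, whose product lowers class II on the cell surface, was at least 2-fold higher, from 37.5 to 84.5 CPM, and Ifng at least 2-fold lower, on 95 and 13 UMIs. In T cells, the main source of the cytokine, Ifng had 167 CPM, and 85.2 CPM with the agonist (log2 ratio -0.97, -1.06 to -0.87). Whether either has a part in the class II levels was not tested. H2-Eb2, the 1 other class II gene listed, was at 4.49 and 8.43 CPM and came mostly from migratory dendritic-like cells, where it had 58.9 and 78.5 CPM.

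Across 34 points, the cell types and subsets of both libraries with at least 20 cells, the genes outside the group whose level was most like the core level among 13240 genes were Cd86 (Pearson r of log2(CPM + 1) 0.958), Aif1 (0.953), Gm6377 (0.939), Ifi30 (0.936) and Ctss (0.935). The points share the 2 libraries and the subsets lie within their class, so these values describe and test nothing. Of the group itself H2-DMa had 0.984 and H2-DMb1 0.968, Ciita had 0.923 and stood at rank 14, and H2-DMb2, H2-Oa and H2-Ob, with 0.877, 0.825 and 0.796, stood at ranks 35, 80 and 115. Cd86, which binds CD28 on T cells, was likewise high in Langerhans-like cells, and it was higher there in TLR9agonist_LW. The 10 class II genes were all lower there, as were 68.6% of all genes, and 3 of the 10 were higher than the median gene.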

How the data were processed

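Single-cell RNA was measured in 2 libraries, 1 per group, on the 10x Genomics 3′ platform. The deposited files hold raw UMI counts per gene and cell barcode, which the authors made with Cell Ranger (version 4.0.0 per the file headers). fastp, Seurat and mm9 stand in the submitters' processing notes, and whether the kit was v2 or v3 is not given in the sources used here. Gene positions were joined by identifier from GENCODE vM21 on GRCm38 (10 of 10 genes), and the build of the counts was not needed.

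A cell was kept from 500 UMIs and 300 detected genes upward if mitochondrial UMIs made up no more than 15%. Doublets were called from simulated pairs at 0.8% per 1000 cells. Cells were gated by marker scores on counts scaled to 10000, without any class II gene, and macrophages and dendritic cells were assigned to a subset with at least 3 markers and a margin of 0.25. Gene ratios between libraries were described for genes with at least 50 UMIs over both libraries. Pathway genes were named from 200 UMIs by a rule, and Cd70, Ifng, H2-Eb2 and Rfx5 were named after their values were seen. Intervals are exact at 95% and a floor is 3 counts. UMIs collapse amplification copies, and intervals cover counting error only. No test between groups was made. The members and gene lists were chosen with earlier results of these data known, and the gate thresholds, the X motif and the line at 5000 CPM were set after the data were seen. The alternatives were Leiden clusters (resolution 1.5), stricter gates and filters (1500 UMIs, 800 genes, 8% mitochondrial), doublets kept, equal weight per cell, median-centring, fixed subset mix and thinning to 1500 UMIs. Leaving out lymphatic endothelial cells and the endothelial ratios were added after seeing the data. 1 gene of the interferon gamma list, and the counts over that list, are not reported here. The scripts were tested on simulated data. Intervals were computed with scipy 1.17.1, clusters with leidenalg 0.10.2, igraph 0.11.9 and scikit-learn 1.9.0, tables with pandas 2.3.3 and numpy 2.4.6 and figures with matplotlib 3.10.9, in Python 3.11.15.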

Additional observations from a re-analysis of the deposited data

How the results depend on the processing

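No paired analysis was possible because each group has 1 library, and leaving out a replicate was not possible for the same reason. The core log2 ratio in macrophages and dendritic cells, -0.22, was -0.23 with Leiden clusters, -0.20 with doublets kept, -0.21 with equal weight per cell, -0.21 thinned to 1500 UMIs and -0.10 with the subset mix held fixed, and it turned to 0.042 when median-centred. H2-Aa, H2-Eb1 and Cd74 also turned when median-centred, to 0.13, 0.13 and 0.13. The 1 gene past 2-fold, Ciita, became 0 genes when median-centred, with the mix fixed and when thinned. The non-immune core level as a percent of that in macrophages and dendritic cells, 1.39 in WT_LW, was 1.75 with clusters, 1.35 with a stricter gate, 1.36 with a stricter filter, 1.73 with doublets kept, 2.58 with equal weight per cell, 1.59 in cells without a reference UMI, 1.36 without lymphatic endothelial cells and -0.454 with the T cell level subtracted. In TLR9agonist_LW it was 0.845, and 0.873 with clusters, 0.891 with a stricter filter, 1.36 with doublets kept, 1.49 with equal weight, 0.939 without a reference UMI and -0.464 with the T cell level subtracted. The share of core UMIs in macrophages and dendritic cells was 94.7% with clusters, 95.9% with a stricter gate and 94.7% with doublets kept in WT_LW, and 94.1% with a stricter gate, 93.4% with a stricter filter and 90.4% with doublets kept in TLR9agonist_LW. The highest over the lowest subset was 3.27 with a stricter gate, 2.83 with a stricter filter, 2.75 with doublets kept and 2.56 with equal weight in WT_LW, and 2.91 with a stricter gate and 2.80 with equal weight in TLR9agonist_LW. Core UMIs per reference UMI in blood endothelial cells were 3.36 with clusters and 3.97 with a stricter filter in WT_LW and 3.88 with clusters in TLR9agonist_LW. The causes were not tested. Depth limits Ciita, H2-DMb2, H2-Oa and H2-Ob, which had under 50 UMIs in some subsets.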
